A study of Mus musculus with 12 samples.

Results

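The genes described here are 28 components of GABA and glycine synapses, found by symbol in the table of 36131 genes measured in mouse retina. They comprise 8 subunits of the GABA-A receptor, 3 rho subunits, both subunits of the GABA-B receptor, 5 glycine receptor subunits, the enzymes and vesicular carrier for GABA, 4 plasma membrane transporters and a pair of postsynaptic organizers. Each symbol matched 1 Ensembl row, and 27 of the 28 had enough counts to be tested. Retinas came from C57BL/6J wildtype mice at postnatal day (P) 18, with 1 library per mouse and 4 mice per group. RA-PBS mice (animals 1 to 4) stayed in room air (RA) and received the placebo PBS. O2-PBS mice (animals 5 to 8) were placed in 75% O2 at P7 and returned to room air at P12, which makes oxygen-induced retinopathy (OIR), and received PBS. O2-IC100 mice (animals 9 to 12) had the same oxygen exposure and received IC100, a humanized antibody against the inflammasome adaptor ASC, at 10 µg/g of body weight. The labels give intraperitoneal injection on P12, P14 and P16 for placebo and antibody alike, so every group was injected and there was no room air group with IC100. The paper describes its PBS placebo as given into the vitreous, so the route in the PBS groups is uncertain. Litters are not stated.

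GABA and glycine are the fast inhibitory transmitters of the retina. They are released mainly by amacrine cells, onto bipolar cells, ganglion cells and other amacrine cells. Horizontal cells also release GABA. GABA-A receptors, rho receptors and glycine receptors are pentameric chloride channels, whereas GABA-B receptors signal through G proteins. Receptors of rho subunits, once called GABA-C receptors, are known for the slow and sustained inhibition of bipolar cell terminals.

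Per kilobase of exon, the most abundant members in RA-PBS retinas were transporters, a rho subunit and the vesicular carrier. Levels are given in CPM, the counts scaled to a fixed library size after normalization by the trimmed mean of M-values (TMM), and are here divided by the length of the union of exons. Slc6a11, which encodes the GABA transporter GAT3, stood at 50.2 ± 9.56 CPM per kb (SD, n = 4). The rho subunit gene Gabrr1 followed at 45.7 ± 8.94, and Slc32a1, the carrier that loads GABA and glycine into vesicles, at 44.5 ± 6.70. The top 7 members, down to Gabrr2 at 32.2 ± 3.38, overlapped with their neighbours in the order within 1 SD. Of the 27 neighbouring pairs in the whole order, 21 overlapped in this way. Steps without overlap included those that separated Gabrr2 from Gabbr1 at 25.4 ± 3.30, Abat from Gabbr2 at 11.0 ± 2.08, and Gad2 from Glra2 at 6.40 ± 1.32.

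**Figure D1:**
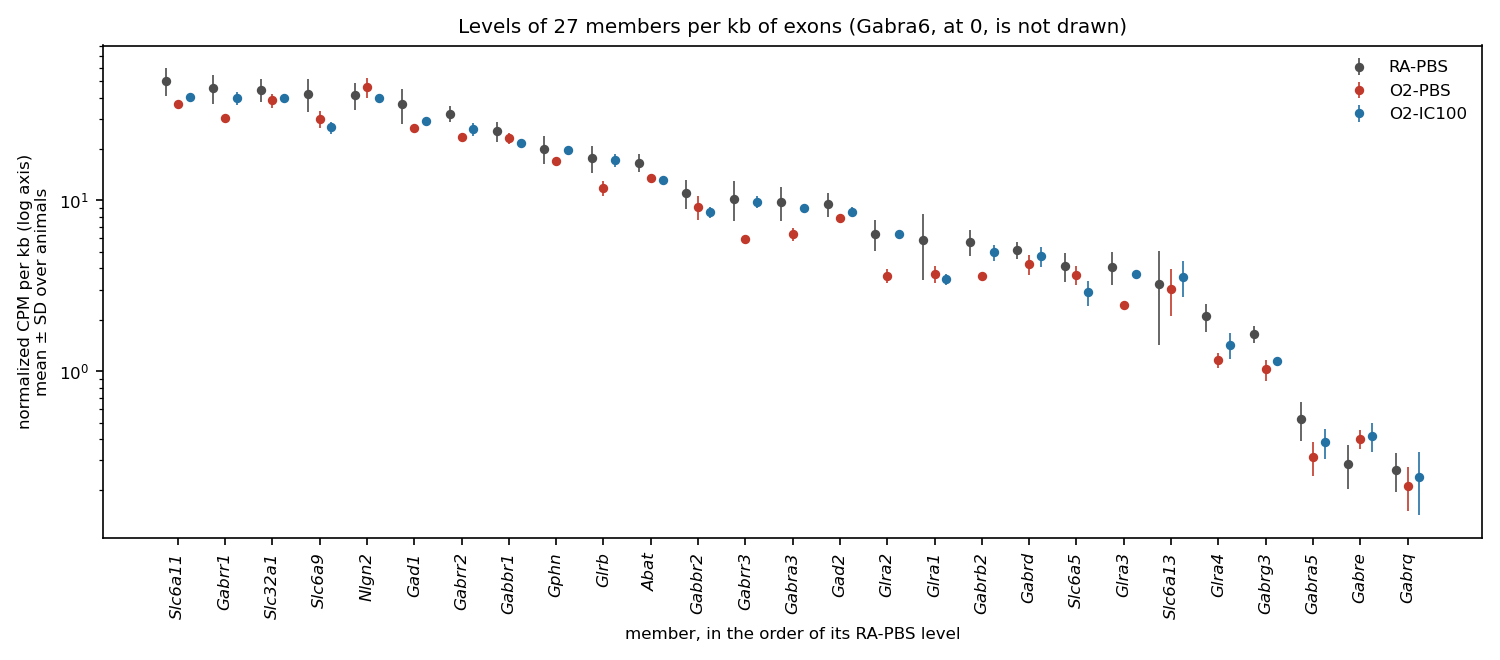
Level of 27 members in normalized CPM per kb of exon on a log axis, as mean ± SD over 4 RA-PBS, 4 O2-PBS and 3 O2-IC100 animals. Members fall from 50.2 for Slc6a11 to under 1 for Gabra5, Gabre and Gabrq in RA-PBS retinas.

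At the low end stood 4 GABA-A subunit genes. Gabra5 reached 0.524 ± 0.133 CPM per kb, Gabre 0.286 ± 0.0810 and Gabrq 0.265 ± 0.0685 in RA-PBS retinas. Gabra6 had no count in any of the 12 libraries, and a count of 0 allows up to 0.123 to 0.201 CPM at these depths (3 counts of the total, counting error only). A total of 24 members were at or above 1 CPM per kb. Further GABA-A subunits are outside the 28 and belong to a separate list.

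The promoters of Glra2, Glra3 and Gabrr3 are shown because these were the members that passed the thresholds both in O2-PBS against RA-PBS and in O2-IC100 against O2-PBS. Each window runs from 250 bases before to 50 bases after the gene start in RefSeq on GRCm38.p6, 5′ to 3′ on the strand of the gene. Capitals mark a match to GGGCGG (a core bound by Sp1), TATAAA (the TATA box core) or ACGTG (the hypoxia response core) on either strand.
Glra2, chrX:165327344-165327643, minus strand: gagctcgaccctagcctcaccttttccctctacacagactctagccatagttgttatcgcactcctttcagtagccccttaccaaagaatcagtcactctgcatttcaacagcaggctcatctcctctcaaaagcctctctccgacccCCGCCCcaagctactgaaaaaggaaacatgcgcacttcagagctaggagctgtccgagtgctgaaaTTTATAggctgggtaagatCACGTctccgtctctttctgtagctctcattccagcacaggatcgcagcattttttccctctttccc
Glra3, chr8:55940168-55940467, plus strand: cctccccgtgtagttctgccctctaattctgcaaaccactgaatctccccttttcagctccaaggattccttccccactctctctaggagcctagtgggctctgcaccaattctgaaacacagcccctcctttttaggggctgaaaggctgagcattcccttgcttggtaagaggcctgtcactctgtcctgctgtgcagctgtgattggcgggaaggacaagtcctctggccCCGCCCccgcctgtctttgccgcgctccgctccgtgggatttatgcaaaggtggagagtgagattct
Gabrr3, chr16:59407132-59407431, plus strand: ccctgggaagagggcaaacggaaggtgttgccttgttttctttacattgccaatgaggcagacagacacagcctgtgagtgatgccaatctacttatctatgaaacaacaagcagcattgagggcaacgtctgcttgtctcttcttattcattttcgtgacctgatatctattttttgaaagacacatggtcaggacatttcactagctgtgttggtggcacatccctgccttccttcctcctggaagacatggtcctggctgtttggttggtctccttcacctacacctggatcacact

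The Glra2 window held all 3 of these motifs, the Glra3 window held only GGGCGG, and the Gabrr3 window held none of them, nor did any of the 3 windows hold TAATCC, the core bound by CRX and OTX2. RefSeq promoters were at hand for 25 of the 28 members, in 33 windows. GGGCGG stood in 16 of the 33 windows, against 35.7% of all 32851 promoter windows. ACGTG stood in 6 of the 33 against 19.6% of all, TATAAA in 5 against 13.6%, and TAATCC in 4 (of Gabrr2, Gad1, Slc6a13 and Slc6a5) against 7.06%. GGGCGG is rich in G and C, and the median GC content was 59% in the members' windows and 52.7% in all windows.

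Total counts were 14907143 to 24438082 per library. In O2-IC100 animal 10, lens crystallins took 59.0% of the counts and the 10 rod genes 0.328%, against 3.91% to 4.87% for the rod genes in the other 11. Animal 10 was therefore left out of the main fit, and for members past the thresholds or with an adjusted p under 0.1 the value with all 12 animals is given as well. RA-PBS animals 2, 3 and 4 held 1.26%, 4.51% and 1.45% crystallin counts, and RA-PBS 1 and the remaining O2 animals at most 0.0204%. RA-PBS 4 held 5660 CPM of oligodendrocyte genes against at most 165 in the other libraries, and oligodendrocytes myelinate the optic nerve. Y-linked genes were at 239 to 372 CPM in RA-PBS 1 to 3, O2-PBS 8 and O2-IC100 9, 11 and 12, and at 1.32 to 10.9 CPM in the other 5 animals, so that animals with Y-linked counts were spread unequally over the groups.

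Several inhibitory receptor genes were lower in O2-PBS than in RA-PBS retinas. Of the 27 tested members, 9 passed the thresholds (fold change of at least 1.5, p under 0.05 and adjusted p under 0.1, edgeR) as lower and 0 as higher, where 2.18% of all 16688 tested genes were called lower and 4.09% higher. All 9 encode chloride channel subunits, 4 of the glycine receptor, 3 of the GABA-A receptor and 2 of the rho receptor. The median log2 fold change of the 27 was -0.46, against -0.01 over all tested genes. With any fold change, 15 members had an adjusted p under 0.1 and all were lower (6.42% of all genes), and in 13 members the 4 O2-PBS animals lay below the 4 RA-PBS animals (6.48% of all genes) and in 0 above (7.86%). With all 12 animals in the fit, 0 of the members passed and 3 had an unadjusted p under 0.05 (7.12% of all genes), although the median was also -0.46. In that fit 0.0243% of all genes were called lower and 0.782% higher, and DESeq2 on all 12 animals also called 0 members. Animal 10 belongs to neither group compared here and enters only through the shared filter, normalization and estimate of spread. In a fit of only the 2 groups compared, Glra1 lost its call, the other calls stood and Glrb was called as well. RNA of whole retina cannot tell fewer cells of a type from less RNA per cell.

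**Figure D2:**
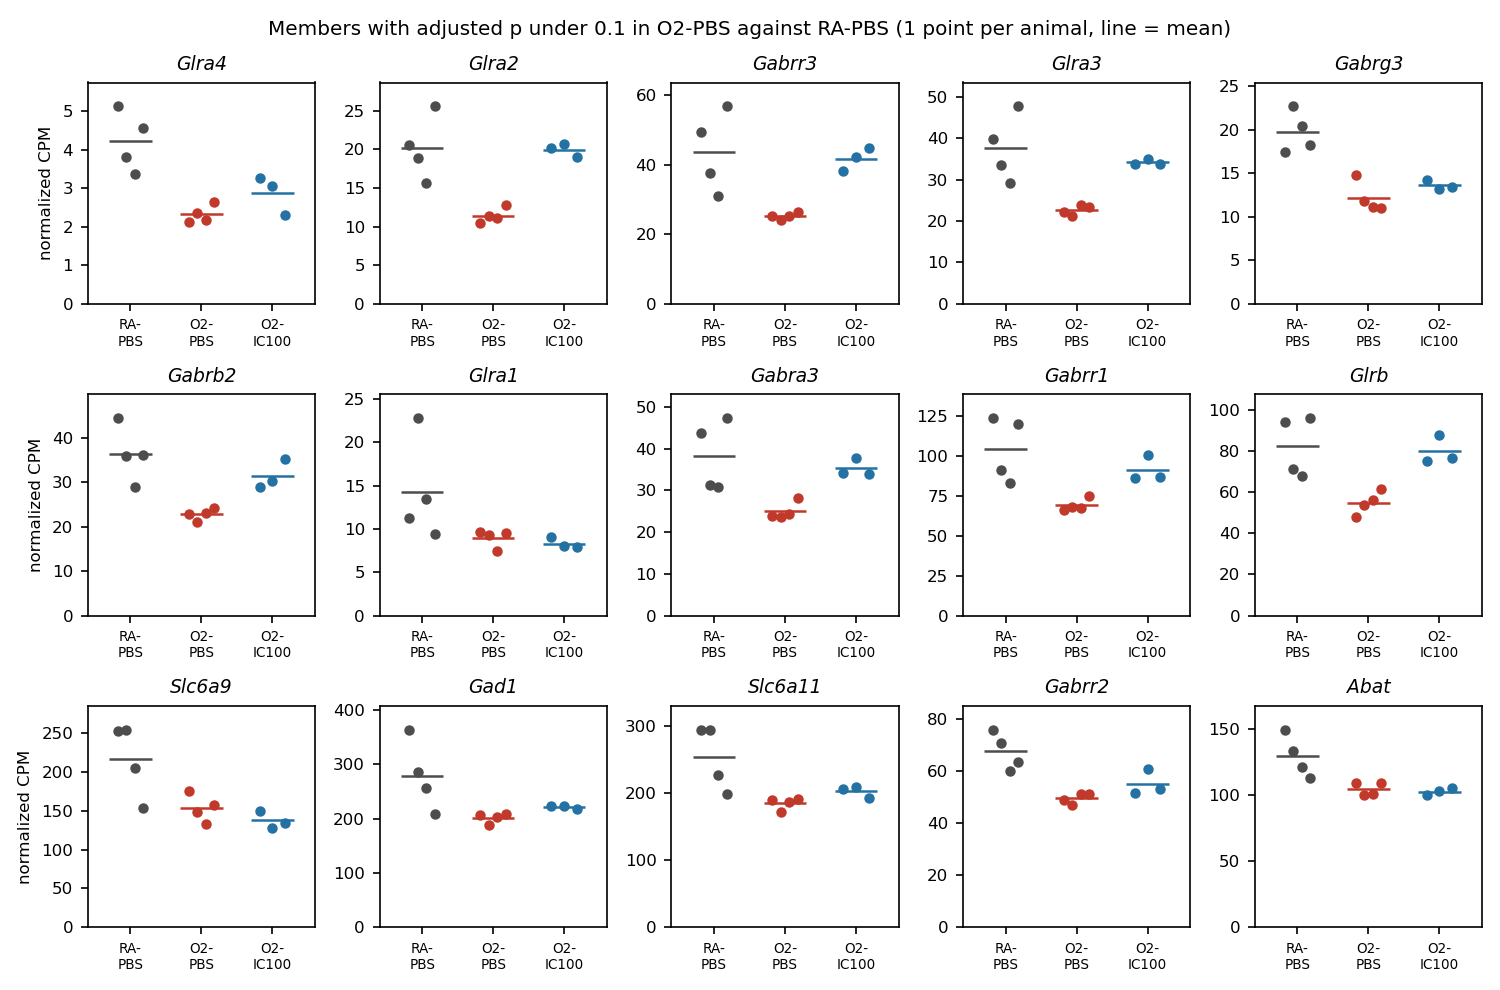
Normalized CPM of the 15 members with an adjusted p under 0.1 in O2-PBS against RA-PBS, with 1 point per animal and a line at the group mean, each axis starting at 0. The O2-PBS animals lie below every RA-PBS animal except in Glra1, Slc6a9 and Gad1, and the O2-IC100 animals lie near RA-PBS in Glra2, Gabrr3 and Glrb and near O2-PBS in Abat, Gabrg3 and Glra1.

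Of the 5 glycine receptor subunit genes, 4 passed the thresholds as lower. All 5 had a log2 fold change below 0 with an adjusted p under 0.1 (edgeR), and their median log2 fold change was -0.73. Glra2 (ENSMUSG00000018589), an alpha subunit of glycine receptors in the retina and the developing nervous system, stood at 20.5, 18.9, 15.6 and 25.6 normalized CPM in RA-PBS animals 1 to 4, at 10.4, 11.3, 11.1 and 12.9 in O2-PBS animals 5 to 8, and at 20.2, 20.6 and 19.0 in O2-IC100 animals 9, 11 and 12. The 4 O2-PBS animals lay below all others, while the O2-IC100 animals lay within the range of RA-PBS. The log2 fold change in O2-PBS was -0.82 (SE 0.14, 95% confidence interval -1.12 to -0.52, adjusted p = 0.00317, edgeR; 0.999 with all 12 animals).

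Glra3 (ENSMUSG00000038257), the alpha subunit known from narrow-field amacrine circuits, stood at 39.9, 33.6, 29.1 and 47.7 normalized CPM in RA-PBS, at 22.1, 21.1, 23.9 and 23.4 in O2-PBS, and at 33.8, 35.0 and 33.9 in O2-IC100. It fell by 0.73 on the log2 scale in O2-PBS (SE 0.13, adjusted p = 0.00386, edgeR; 1.00 with all 12 animals), and again O2-PBS did not overlap with either other group. Glra4 (ENSMUSG00000018595) was the least abundant glycine receptor gene, with expected counts of 32 to 82 in these 11 libraries. Its values were 5.13, 3.81, 3.36 and 4.55 normalized CPM in RA-PBS, 2.12, 2.37, 2.19 and 2.63 in O2-PBS, and 3.26, 3.06 and 2.30 in O2-IC100. The log2 fold change in O2-PBS, -0.85 (SE 0.21, adjusted p = 0.0223, edgeR; 0.916 with all 12 animals), was the most negative among the members, and its O2-IC100 animals overlapped with O2-PBS.

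Glra1, the alpha subunit of adult glycine receptors in spinal cord and also of bipolar and ganglion cells, was the exception in its spread. It stood at 11.3, 22.8, 13.4 and 9.40 normalized CPM in RA-PBS, at 9.68, 9.25, 7.50 and 9.49 in O2-PBS, and at 9.02, 7.99 and 7.93 in O2-IC100. RA-PBS 2 was high, and RA-PBS 4 lay within the range of O2-PBS. The log2 fold change of -0.67 (SE 0.23, adjusted p = 0.0925, edgeR; 1.00 with all 12 animals) lost its call under 18 of 26 alternatives, among them the fits without RA-PBS 2 or 3 and without any 1 animal of either O2 group. Glrb, the beta subunit that ties glycine receptors to gephyrin, stood at 94.3, 71.2, 67.8 and 96.2 in RA-PBS, at 48.1, 54.0, 56.3 and 61.8 in O2-PBS, and at 75.4, 87.9 and 76.8 in O2-IC100. Its O2-PBS animals lay below all others, with a fold of 1.497 that just missed the minimum of 1.5 (log2 fold change -0.58, SE 0.12, adjusted p = 0.0111, edgeR; 1.00 with all 12 animals).

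Both Gabrr1 and Gabrr3 passed the thresholds as lower among the 3 rho subunit genes. Gabrr3 (ENSMUSG00000074991) stood at 49.4, 37.5, 31.1 and 56.8 normalized CPM in RA-PBS, at 25.3, 24.1, 25.3 and 26.4 in O2-PBS, and at 38.1, 42.3 and 44.9 in O2-IC100. The O2-PBS animals were close together and below all others, and O2-IC100 lay within RA-PBS. Its log2 fold change in O2-PBS was -0.79 (SE 0.15, adjusted p = 0.00668, edgeR; 1.00 with all 12 animals). Gabrr1 (ENSMUSG00000028280), the main rho subunit of rod bipolar cell terminals, stood at 124, 91.4, 82.8 and 120 in RA-PBS, at 66.0, 67.7, 67.6 and 74.9 in O2-PBS, and at 86.2, 100 and 86.6 in O2-IC100. The groups in room air and in O2 with PBS did not overlap. The log2 fold change of -0.60 (SE 0.12, adjusted p = 0.00916, edgeR; 1.00 with all 12 animals) was a fold of 1.51, and the call was lost without RA-PBS 1, RA-PBS 4 or O2-PBS 5. It was also lost with upper quartile normalization and with limma voom.

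Gabrr2, which lies next to Gabrr1 on chromosome 4 in the GENCODE M21 annotation, had a smaller difference. It stood at 76.1, 70.8, 60.1 and 63.8 normalized CPM in RA-PBS, at 49.1, 46.9, 51.1 and 51.1 in O2-PBS, and at 51.5, 60.9 and 53.2 in O2-IC100. Its groups in O2-PBS and RA-PBS did not overlap (log2 fold change -0.45, SE 0.09, adjusted p = 0.00806, edgeR; 1.00 with all 12 animals), but the fold of 1.37 was under the minimum. The 3 rho genes thus ran in the same direction with folds of 1.37 to 1.73.

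Among the 7 tested GABA-A subunit genes, Gabrb2, Gabrg3 and Gabra3 passed the thresholds as lower. Gabrg3 (ENSMUSG00000055026), a gamma subunit, stood at 17.5, 22.7, 20.4 and 18.3 normalized CPM in RA-PBS, at 14.8, 11.8, 11.2 and 11.1 in O2-PBS, and at 14.2, 13.2 and 13.5 in O2-IC100. It was lower in both O2 groups than in every RA-PBS animal, with a log2 fold change in O2-PBS of -0.69 (SE 0.12, adjusted p = 0.00402, edgeR; 0.630 with all 12 animals), and the call was lost with the lens level as a covariate, at -0.58. Gabrb2 (ENSMUSG00000007653), a beta subunit of many GABA-A receptors, stood at 44.6, 35.9, 29.1 and 36.1 in RA-PBS, at 23.0, 21.2, 23.1 and 24.4 in O2-PBS, and at 29.0, 30.4 and 35.2 in O2-IC100. Its O2-PBS animals lay below all others (log2 fold change -0.67, SE 0.12, adjusted p = 0.00442, edgeR; 1.00 with all 12 animals), and the call was lost without RA-PBS 1.

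Gabra3 (ENSMUSG00000031343), an alpha subunit typical of bipolar and some amacrine cell synapses, stood at 43.6, 31.2, 30.8 and 47.4 normalized CPM in RA-PBS, at 23.9, 23.5, 24.3 and 28.1 in O2-PBS, and at 34.2, 37.6 and 33.9 in O2-IC100. RA-PBS 2 and 3 were lower than RA-PBS 1 and 4, and O2-PBS 8 was the highest of its group, yet O2-PBS did not overlap with RA-PBS. The log2 fold change was -0.62 (SE 0.14, adjusted p = 0.0145, edgeR; 0.787 with all 12 animals), and the call was lost without RA-PBS 1 or 4 and with upper quartile normalization.

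The other GABA-A genes did not pass. Gabra5, the alpha subunit of extrasynaptic receptors, had a log2 fold change of -0.74 with a wide error (SE 0.32, adjusted p = 0.192, edgeR), from expected counts of 12 to 36. Gabrd, the delta subunit of tonic inhibition, ranged from 13.5 to 17.1 normalized CPM in RA-PBS, 10.9 to 14.6 in O2-PBS and 11.7 to 15.4 in O2-IC100, with a log2 fold change in O2-PBS of -0.28 (SE 0.14, adjusted p = 0.257, edgeR). Among the members, Gabre, Gabra3, Gabrq, Glra2 and Glra4 lie on chromosome X. Gabre had a log2 fold change of 0.48 (SE 0.28, adjusted p = 0.340, edgeR), and Gabrq one of -0.31 (SE 0.36). At their depth, differences in Gabre of -0.11 to 1.08 and in Gabrq of -1.09 to 0.46 lay within the 95% confidence intervals.

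No gene of GABA synthesis, vesicular loading, breakdown or plasma membrane transport passed the thresholds in O2-PBS, and 4 of these 8 had an adjusted p under 0.1 with a smaller fold. Gad1, which encodes the GABA-forming decarboxylase GAD67, stood at 364, 287, 256 and 208 normalized CPM in RA-PBS, at 206, 188, 204 and 209 in O2-PBS, and at 224, 224 and 217 in O2-IC100. RA-PBS 4 lay among the O2-PBS animals (log2 fold change -0.47, SE 0.13, adjusted p = 0.0448, edgeR; 1.00 with all 12 animals). Slc6a11 stood at 294, 294, 227 and 199 in RA-PBS, at 189, 172, 186 and 191 in O2-PBS, and at 206, 209 and 192 in O2-IC100, with no overlap between O2-PBS and RA-PBS (log2 fold change -0.46, SE 0.12, adjusted p = 0.0270, edgeR; 1.00 with all 12 animals).

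Slc6a9, the glycine transporter GlyT1 of glycinergic amacrine cells and glia, stood at 252, 255, 205 and 154 normalized CPM in RA-PBS, at 176, 148, 133 and 157 in O2-PBS, and at 150, 128 and 135 in O2-IC100. Again RA-PBS 4 lay within the O2-PBS range (log2 fold change -0.50, SE 0.14, adjusted p = 0.0465, edgeR; 0.863 with all 12 animals). Abat, the transaminase that breaks GABA down, stood at 150, 133, 121 and 113 in RA-PBS, at 109, 99.8, 101 and 109 in O2-PBS, and at 99.9, 103 and 105 in O2-IC100. Both O2 groups lay below RA-PBS in Abat (log2 fold change -0.30, SE 0.09, adjusted p = 0.0474, edgeR; 0.579 with all 12 animals).

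Gad2, the gene of GAD65, stood at 69.0, 52.8, 52.2 and 49.9 normalized CPM in RA-PBS, at 48.9, 43.8, 46.8 and 46.3 in O2-PBS, and at 47.8, 53.7 and 49.8 in O2-IC100. The groups in PBS did not overlap, though RA-PBS 4 and O2-PBS 5 were close, and the log2 fold change of -0.27 (SE 0.10, adjusted p = 0.127, edgeR) did not pass. Slc32a1 ranged from 103 to 145 in RA-PBS, 97.4 to 121 in O2-PBS and 106 to 118 in O2-IC100, with a log2 fold change in O2-PBS of -0.21 (SE 0.11, adjusted p = 0.279, edgeR). Slc6a5, the neuronal glycine transporter GlyT2, had one of -0.17 (SE 0.15) and Slc6a13, the GABA transporter GAT2, one of -0.10 (SE 0.38). Slc6a13 was 3.06 normalized CPM in RA-PBS 1 and 7.57, 11.8 and 15.2 in RA-PBS 2, 3 and 4, the animals with more crystallin counts, and 5.88 to 11.4 in O2-PBS.

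The GABA-B and organizer genes did not pass either. Gabbr1, which binds the transmitter, ranged from 163 to 218 normalized CPM in RA-PBS, 168 to 197 in O2-PBS and 159 to 176 in O2-IC100, with a log2 fold change in O2-PBS of -0.14 (SE 0.10). Gabbr2, which couples to the G protein, ranged from 54.5 to 85.8, 55.4 to 76.2 and 53.3 to 61.1 in the same order (log2 fold change -0.27, SE 0.14, adjusted p = 0.278, edgeR). Gphn, the scaffold gephyrin, had a log2 fold change of -0.24 (SE 0.11, adjusted p = 0.240, edgeR). Nlgn2, the adhesion molecule of inhibitory postsynapses, ranged from 192 to 278 in RA-PBS, 238 to 318 in O2-PBS and 221 to 244 in O2-IC100, with a log2 fold change in O2-PBS of 0.15 (SE 0.13, adjusted p = 0.542, edgeR). Their 95% confidence intervals reached from -0.35 to 0.07 for Gabbr1 and from -0.13 to 0.43 for Nlgn2.

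**Figure D3:**
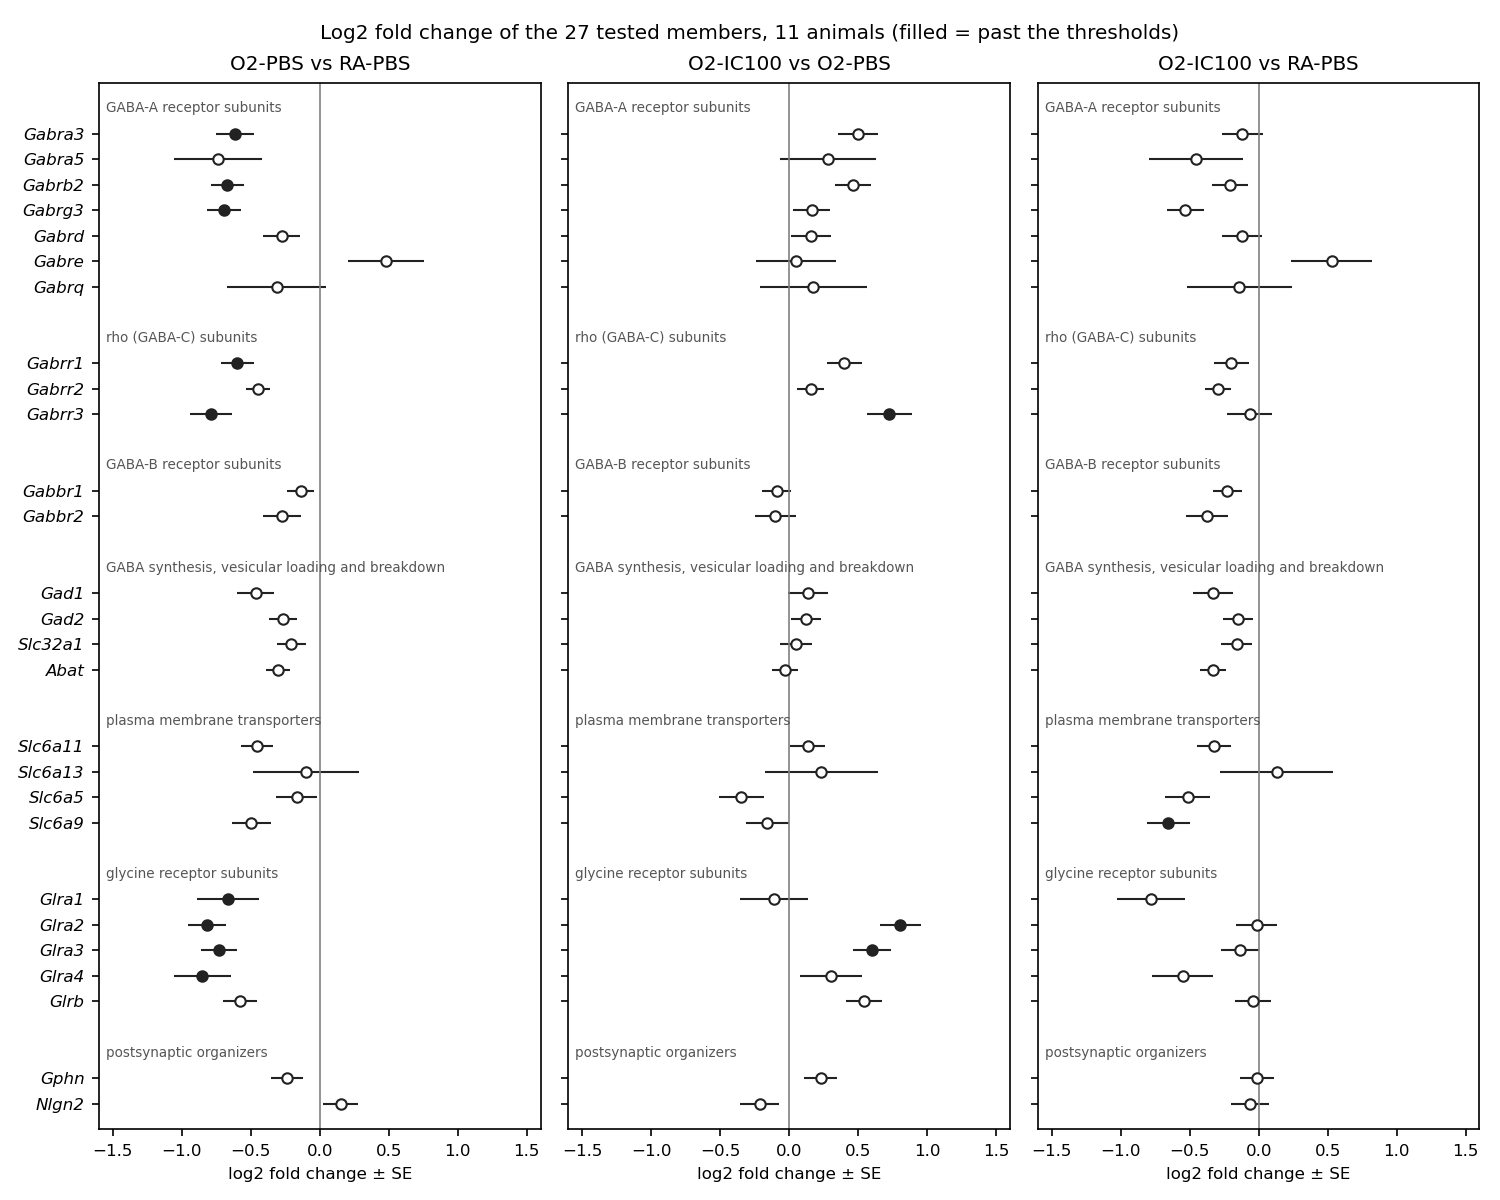
Log2 fold change ± SE of the 27 tested members in the 3 comparisons from the fit of 11 animals, ordered by role, with filled points for members past the thresholds. In O2-PBS against RA-PBS 9 points are filled and all lie left of 0, in O2-IC100 against O2-PBS Glra2, Glra3 and Gabrr3 are filled on the right, and in O2-IC100 against RA-PBS only Slc6a9 is filled.

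The 9 calls were also looked at within the animals that had or lacked lens and Y-linked counts. In all of these genes but Glra1, the 4 O2-PBS animals lay below every RA-PBS animal. For those genes the orders of single animals given here follow from that, so they are no separate check. RA-PBS 1, with 0.00691% crystallin counts, lay above all 4 O2-PBS animals in all 9 genes. With the lens level as a covariate 14 members were called, 13 lower and Slc6a13 higher, the latter with a log2 fold change of 1.40 (adjusted p = 0.0317, edgeR). The count over all tested genes, given in the last section, rose as well under this covariate. Apart from RA-PBS 1, the RA-PBS animals had more crystallin counts than every O2 animal in the fit. Lens level and group could therefore hardly be told apart in it. The 13 held 7 of the 9, without Gabrg3 (-0.58, under the fold minimum) and Glra1 (-0.43, adjusted p = 0.385), and added Gabra5, Gabrr2, Gad1, Slc6a11, Slc6a9 and Glrb. Among animals with Y-linked counts, O2-PBS 8 lay below RA-PBS 1, 2 and 3 in all 9. Among those with few, O2-PBS 5, 6 and 7 lay below RA-PBS 4 in 8 of the 9, Glra1 being the other. With the Y-linked level as a covariate, Glra1 lost its call (-0.42, adjusted p = 0.349, edgeR) and Glrb gained one as lower (-0.60, adjusted p = 0.0239). The calls of the other members did not change under this covariate. Leaving out 1 animal gave 6 to 9 members, with 6 without RA-PBS 1.

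Markers of several cell types differed between O2-PBS and RA-PBS as well. Summed over the list, 10 amacrine genes were at 968 to 1212 normalized CPM in RA-PBS, 805 to 877 in O2-PBS and 933 to 984 in O2-IC100, and 5 horizontal cell genes at 325 to 451, 273 to 294 and 287 to 309. Ganglion cell genes were at 1153 to 1672, 932 to 1005 and 1111 to 1166, and bipolar genes at 1708 to 2153, 1582 to 1833 and 1621 to 1659. The 10 rod genes, in contrast, overlapped in all groups at 40244 to 48509. In O2-PBS against RA-PBS, 0 of 10 amacrine genes were called lower (4 with an adjusted p under 0.1, median log2 fold change -0.32), 1 of 5 horizontal (-0.40), 1 of 10 bipolar (-0.30), 1 of 10 ganglion cell (-0.41) and 2 of 8 Müller glia genes (-0.47), against 0 of 10 rod genes (0.01). Endothelial genes went the other way, with 7 of 8 called higher (median 1.19) and sums of 238 to 348 in RA-PBS, 481 to 544 in O2-PBS and 353 to 393 in O2-IC100. Of the microglia genes 3 of 7 were called higher (0.72), with sums of 30.3 to 52.7, 54.9 to 68.4 and 60.7 to 77.1. Of the retinal pigment epithelium genes 5 of 8 were called lower (-1.25), with sums of 123 to 324, 55.4 to 142 and 157 to 166. The pigment epithelium sum of 123 was that of RA-PBS 1, which had few crystallin counts, and lay within the O2-PBS range. RA-PBS 2, 3 and 4, with more crystallin counts, were at 248, 324 and 294. No gene of these lists was at 0 in all animals. Their part in the result was not tested.

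**Figure D4:**
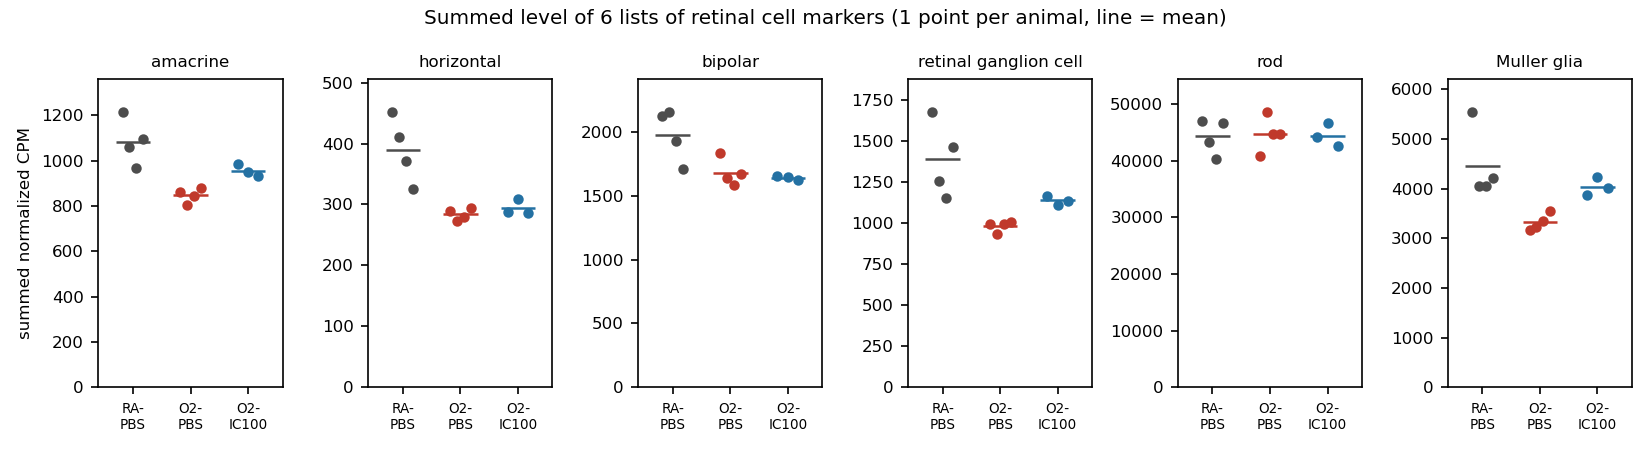
Summed normalized CPM of 6 lists of retinal cell markers, with 1 point per animal and a line at the group mean, each axis starting at 0. The amacrine, horizontal, ganglion cell and Müller glia sums of O2-PBS lie below every RA-PBS animal, and the rod sums overlap between 40244 and 48509.

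In O2-IC100 against O2-PBS retinas, 3 members were higher and 0 lower, where 0.216% of all tested genes were called higher and 0.731% lower. They were Glra2, Gabrr3 and Glra3, whose values in every animal are given above. Glra2 rose by 0.81 on the log2 scale (SE 0.15, adjusted p = 0.0381, edgeR), Gabrr3 by 0.72 (SE 0.16, adjusted p = 0.0772) and Glra3 by 0.60 (SE 0.14, adjusted p = 0.0870), and in each the 3 O2-IC100 animals lay above the 4 O2-PBS animals. Glrb had a log2 fold change of 0.54 (SE 0.13, adjusted p = 0.0977, edgeR), under the fold minimum, so that 4 members had an adjusted p under 0.1 as higher (0.461% of all genes) and 0 as lower (0.851%). The median over the 27 members was 0.16, against 0.00 over all genes. The O2-PBS animals are shared with the comparison above, so a low value in them moves both results. Among the marker lists, 1 of 8 Müller glia genes was called higher (median 0.32, sums of 3158 to 3544 in O2-PBS and 3872 to 4228 in O2-IC100). Called lower were 2 of 8 endothelial genes (median -0.48), 1 of 5 astrocyte genes (median 0.09) and 1 of 6 tested fibroblast genes (median -0.77). Of the amacrine, horizontal, bipolar, ganglion cell, rod and cone genes, 0 were called. Their part in the result was not tested.

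The 3 calls depended on single animals and on animal 10. With all 12 animals 0 members passed and 1 had an unadjusted p under 0.05 (16.9% of all genes), and the log2 fold changes of Glra2, Gabrr3, Glra3 and Glrb were 0.42, 0.32, 0.21 and 0.17 (adjusted p = 0.690, 0.791, 0.854 and 0.859, edgeR). With 11 animals, 7 members had an unadjusted p under 0.05 (19.2% of all genes). None of the 3 was called without O2-PBS 5, O2-PBS 7, O2-IC100 9, O2-IC100 11 or O2-IC100 12, each left out alone, or with the Y-linked level as a covariate, and 1 was called without O2-PBS 6 or O2-PBS 8. The 3 O2-IC100 animals all had Y-linked counts, as did only O2-PBS 8 among the 4 O2-PBS animals. O2-PBS 8 lay below the 3 O2-IC100 animals in all 3 genes, which already follows from the lack of overlap given above. In Glra2 it was at 12.9 against 19.0 to 20.6 normalized CPM, and 1 animal allows no test.

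In 11 members the 3 O2-IC100 animals lay above the O2-PBS animals (19.4% of all genes), and in 1, Slc6a5, below (16% of all genes). Slc6a5 stood at 31.6, 24.9, 24.3 and 25.2 normalized CPM in O2-PBS and at 23.7, 21.9 and 16.9 in O2-IC100, with a log2 fold change of -0.35 (SE 0.16, adjusted p = 0.263, edgeR). Besides the 3 called genes and Glrb, the 11 were Gabra3 (0.50, adjusted p = 0.143), Gabrb2 (0.46, adjusted p = 0.127), Gabrr1 (0.40, adjusted p = 0.166), Gabrr2 (0.16), Gad1 (0.14), Slc6a11 (0.13) and Gphn (0.23), with log2 fold changes in brackets and adjusted p of edgeR. Gphn stood at 59.4, 63.1, 63.1 and 69.0 normalized CPM in O2-PBS, at 74.0, 77.4 and 72.0 in O2-IC100, and at 92.3, 63.4, 63.6 and 81.2 in RA-PBS. The remaining glycine receptor genes, Glra1 (-0.11, SE 0.25) and Glra4 (0.30, SE 0.22), did not pass, and their O2-IC100 animals overlapped with O2-PBS. The other members had log2 fold changes from -0.21 (Nlgn2, SE 0.14) to 0.28 (Gabra5, SE 0.35).

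In O2-IC100 against RA-PBS retinas, 1 member was lower and 0 higher, where 0.617% of all genes were called lower and 0.947% higher. It was Slc6a9, whose 3 O2-IC100 animals lay below all RA-PBS animals (log2 fold change -0.66, SE 0.16, adjusted p = 0.0709, edgeR; -0.29 and 0.595 with all 12 animals). The call was lost without any 1 O2-IC100 animal, without RA-PBS 1 or 2, and without O2-PBS 6 or 8. Gabrg3 had a log2 fold change of -0.53 (SE 0.13, adjusted p = 0.0810, edgeR; -0.10 and 0.872 with all 12 animals), under the fold minimum, so that 2 members had an adjusted p under 0.1 as lower (1.31% of all genes) and 0 as higher (1.22%). The median over the members was -0.20, against 0.02 over all genes, and 11 members had an unadjusted p under 0.05 (15.6% of all genes). With all 12 animals 0 members passed and 1 had an unadjusted p under 0.05 (13.2% of all genes).

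The O2-IC100 animals lay below all RA-PBS animals in 6 members (4.92% of all genes) and above them in 0 (5.84%). These were Slc6a9, Gabrg3, Abat (-0.33, adjusted p = 0.116), Slc6a5 (-0.51, adjusted p = 0.146), Glra1 (-0.78, adjusted p = 0.147) and Glra4 (-0.55, adjusted p = 0.247), with log2 fold changes in brackets and adjusted p of edgeR. Slc6a5 stood at 24.8, 37.0, 31.6 and 25.4 normalized CPM in RA-PBS. For Glra2, Gabrr3, Glra3 and Glrb the same comparison gave log2 fold changes of -0.01, -0.06, -0.13 and -0.04, with 95% confidence intervals of -0.33 to 0.30, -0.41 to 0.28, -0.43 to 0.16 and -0.32 to 0.24. With all 12 animals their log2 fold changes were -0.40, -0.47, -0.52 and -0.41.

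A further 28 inhibitory synapse genes outside the members, with the remaining GABA-A subunits, chloride carriers, scaffolds and adhesion molecules, were tested. In O2-PBS against RA-PBS 0 of them were called higher, and the median log2 fold change was -0.33. Those called lower included GABA-A subunit genes, with log2 fold changes of -1.33 for Gabra4 (SE 0.19, adjusted p = 0.00106, edgeR), -0.96 for Gabra2 (SE 0.21, adjusted p = 0.0136) and -0.93 for Gabrb1 (SE 0.13, adjusted p = 0.000849). Gabra4 and Gabrb1 were also called with all 12 animals (adjusted p = 0.0233 and 0.0274), unlike any of the members. In O2-IC100 against O2-PBS only Gabra4 was higher (log2 fold change 1.10, SE 0.20, adjusted p = 0.0381, edgeR). In O2-IC100 against RA-PBS 0 of the 28 were called, and 8 had an unadjusted p under 0.05 (15.6% of all genes).

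**Figure D5:**
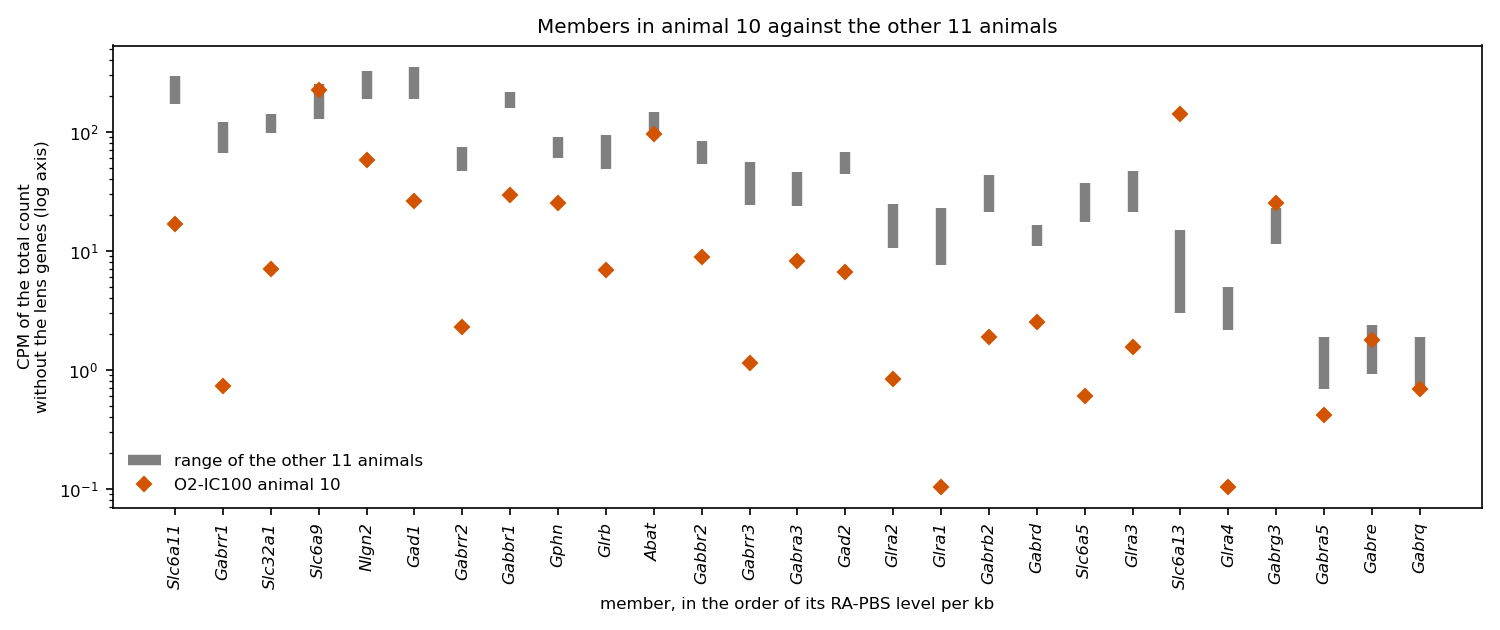
Level of 27 members in animal 10 (diamonds) against the range of the other 11 animals (grey bars), in CPM of the total count without the lens genes on a log axis. Animal 10 lies below the bar in 23 members and above it in Slc6a13 and Gabrg3.

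In animal 10 the members took 0.0271% of the counts, against 0.165% to 0.239% in the other 11. As CPM of the total count, 26 of the 27 detected members lay below the range of the other 11 and Slc6a13 lay above it. With the lens genes taken out of the total, 23 were still below, 2 were within and 2 above. Gabrr1, at 66.8 to 120 CPM without lens genes in the other animals, stood at 0.732 in animal 10, and Glra1 and Glra4 had 1 count each. Slc6a13, which is known from meninges and epithelia outside the retina, stood at 141 CPM without lens genes against 2.98 to 14.9, and Gabrg3 at 25.2 against 11.3 to 22.7. Genes of the retinal pigment epithelium were at 2473 CPM in animal 10 and at 56.6 to 315 in the others.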

How the data were processed

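Retinal RNA of 12 mice was selected for polyA and sequenced as 150 bp paired-end reads. The authors pseudoaligned the reads to the mouse GRCm39 transcriptome with kallisto and summed transcripts per gene with tximport (versions not given in the sources used here). The deposited values are expected counts, not scaled for depth, of which 42.2% are not whole numbers. Kallisto divides reads of similar transcripts by estimation, so paralogous subunit genes carry that uncertainty. Groups were taken from the labels.

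For testing, values were rounded to integers and fitted with edgeR 4.0.16 under R 4.3.3 (TMM, filterByExpr, quasi-likelihood F test with robust empirical Bayes, two-sided, Benjamini-Hochberg adjustment over 16688 genes). The 3 groups shared 1 fit without covariate, with 11 animals. Thresholds were a fold change of at least 1.5, p under 0.05 and adjusted p under 0.1. DESeq2 1.42.0, limma 3.58.1 voom, other normalizations, filters and covariates were alternatives. DESeq2 on all 12 animals and a correction for length and GC content were added after the data were seen. The members and lists, their roles and markers, the lens and Y-linked checks and the omission of animal 10 were chosen with earlier results of these data known. All 28 members are named, with values in every animal for those past the thresholds, those with an adjusted p under 0.1 and those without overlap between groups. Of the list of other inhibitory synapse genes, those past the thresholds are named, except where a result is not reported here. Exon lengths are of the GRCm38 annotation GENCODE M21, matched by Ensembl identifier. On simulated counts of 14846 genes for O2-PBS against RA-PBS, edgeR recovered 98.5% of 200 changed genes, with 7 of 204 calls false. Whether these rates hold for the members, with their folds and their spread between animals, was not tested. Total counts of 14907143 to 24438082 set a floor of 0.123 to 0.201 CPM (3 counts). No 2 libraries agreed within sampling noise.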

Additional observations from a re-analysis of the deposited data

Results flagged for a closer look

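Of 54 groups of 4 animals, 4 held an animal far from the other 3 by Dixon's criterion, where chance gives about 1 in 20 groups. Gabra3 was high in O2-PBS 8 at 28.1 normalized CPM (the other 3 at 23.5 to 24.3), and O2-PBS 8 was the only O2-PBS animal with Y-linked counts. Gabbr2 was high in O2-PBS 5 at 76.2 normalized CPM, against 55.4 to 56.7 in the others of its group. Slc6a5 was high in the same animal at 31.6 normalized CPM, against 24.3 to 25.2. Gad2 was high in RA-PBS 1 at 69.0 normalized CPM, against 49.9 to 52.8. In O2-IC100 animal 10, which is outside the main fit, Slc6a13 reached 55.1 CPM of the total count, while the other 11 animals were at 2.98 to 14.7.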

How the results depend on the processing

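No paired analysis was possible because the animals are numbered 1 to 12 across the groups and no 2 groups share a number. In O2-PBS against RA-PBS the count of 9 members became 0 with all 12 animals and 0 with DESeq2 on all 12, 14 with the lens covariate (Slc6a13 turning to 1.40) and 15 without a fold minimum, and 6 to 9 with 1 animal left out. The count over all genes, 1046, became 133, 412, 3028 and 2074 in the same order, and 784 to 1343. In O2-IC100 against O2-PBS the 3 members became 0 with all 12 animals, with DESeq2 on all 12 and with the Y-linked covariate, and 1 with voom, the length and GC correction or an adjusted p under 0.05, and 0 to 3 with 1 animal left out. The 158 genes became 0 with all 12 animals, 383 with DESeq2, 388 with the lens covariate, 36 with the Y-linked covariate, 789 in a fit of only the 2 groups, 53 at an adjusted p under 0.05, and 0 to 432 with 1 animal left out. The median of the members moved from 0.16 to 0.00297 with all 12 animals. In O2-IC100 against RA-PBS the 1 member became 0 with all 12 animals, with DESeq2 on all 12, in the 2 groups alone and at an adjusted p under 0.05, 2 with DESeq2, the Y-linked covariate or no fold minimum, 4 with the lens covariate, and 0 to 2 with 1 animal left out. The 261 genes became 0 with all 12 animals, 566 with DESeq2, 1418 with the lens covariate, 420 with the Y-linked covariate, 18 in the 2 groups alone, 423 without a fold minimum, 91 at an adjusted p under 0.05, and 21 to 925 with 1 animal left out. The median moved from -0.20 to -0.49 with all 12 animals. The length and GC correction changed the split from 158 higher and 103 lower to 187 and 76. The fit of 12 animals has the O2-IC100 animal with 59.0% crystallin counts added, and for the other settings the cause was not tested. With 3 or 4 animals per group, the SE of low genes such as Gabrq (0.36) limits what could be seen.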
